A study of Mus musculus with 6 samples.

Results

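The genes described here are the coat proteins of lipid droplets and the enzymes of lipolysis, 10 genes of the 54532 in the deposited count table. They were chosen by name: the perilipins Plin1, Plin2, Plin3, Plin4 and Plin5, the triglyceride lipase gene Pnpla2, its activator Abhd5, its inhibitor G0s2, and the lipases Lipe and Mgll. All 10 were found in the table under 1 row each, and all 10 passed the filter on low counts, so none was left out of the test. The tissue was gastrocnemius, a calf muscle, of C57BL/6J mice aged 3 months, and every mouse, controls included, had 0.2% doxycycline in its drinking water from the age of 4 weeks. The control group (3 libraries) carried the Mck cre driver, in which the muscle creatine kinase promoter directs Cre recombinase to striated muscle fibres. The other group (3 libraries) carried Mck cre and a transgene named Tg Glut1-Hk2-Pfkfb3. The name stands for a glucose transporter, a hexokinase and an enzyme that regulates glycolysis. The promoter that drives the transgene is not given in the sources used here. Whether each library stands for its own animal is not stated there either, and the p-values rest on the variation among these samples alone, some or all of which may be technical.

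Muscle fibres store triglyceride in small droplets that lie against mitochondria. Perilipins cover the droplet surface and set the access of lipases, which release fatty acids in 3 steps: adipose triglyceride lipase (Pnpla2) removes the first fatty acid, hormone-sensitive lipase (Lipe) the second, and monoglyceride lipase (Mgll) the last. Plin1 is the coat protein of fat cells, Plin5 that of oxidative tissues such as heart and slow muscle, and Plin2 and Plin3 occur in most cells. Fat cells between muscle fibres also carry most of these transcripts.

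Library totals ran from 19546456 to 24665024 counts, and 14973 genes were tested. The 10 muscle fibre markers (Myh4 and Acta1 highest) summed to between 96737 and 142710 CPM (counts relative to the TMM-scaled library size), so skeletal muscle was borne out. Which muscle was taken cannot be read from these markers. Levels of the targeted genes did not bear out the group label: none of Slc2a1, Hk2 and Pfkfb3 was called. These rows are the mouse genes, and whether reads from the transgene were counted in them was not tested. Slc2a1 (log2 fold change -0.63) and Pfkfb3 (-1.52, with 579 to 1585 CPM in control and 120.1 to 542 CPM in the other libraries) were on the lower side. Hk2 was on the higher side (0.44), through transgenic replicate 1 at 341 CPM, while transgenic replicates 2 and 3, at 168 and 182 CPM, lay within the control range of 156 to 187 CPM. The groups are therefore written as libraries labelled control and labelled transgenic. Control replicate 1 stood apart, with correlations of at most 0.961 with any other library where the others reached 0.980 to 0.988. The 10 lymphocyte markers (Ighm and Igkc highest) summed to 539.8 CPM in it and to 7.69 to 59.2 CPM elsewhere, with Cd8a and Ms4a1 at 0 in at least 1 library. Where leaving this library out changed a call, a direction or a value of a droplet gene by a wide margin, both values are given. Between the groups 118 genes were called higher and 76 lower at an edgeR adjusted p of 0.05, and 205 and 54 when libraries were scaled by their totals alone, which moved the median over all genes from -0.03 to 0.12 on the log2 scale. Macrophage markers (8 genes, Lyz2 and Cd163 highest) summed to 107.4 to 275 CPM in control and 188 to 271 CPM in the other libraries. Markers of fibro-adipogenic progenitors (6 genes, Dcn and Dpt highest) summed to 467 to 706 CPM and 781 to 891 CPM, without overlap, and the part of these cells in the droplet gene values was not tested.

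Of the 10 droplet genes 1 was called higher in the libraries labelled transgenic and 0 lower, where 0.788% of all tested genes were called higher and 0.508% lower. The gene was Plin3. At an unadjusted p under 0.05 there were 5 higher (Plin2, Plin3, G0s2, Lipe and Mgll) and 0 lower, beside 10.5% higher and 10.3% lower among all genes. The CPM of the groups did not overlap in 3 of the 10: Plin3 and Mgll were higher in every library labelled transgenic, beside 13.8% of all genes, and Abhd5 was lower in every one by a small margin, beside 13.6%. The median log2 fold change of the 10 was 0.48, with 8 of 10 positive, against -0.03 over all genes tested, most of which were thus below 0. Pnpla2, counted as positive at 0.08, was at -0.11 without control replicate 1. Without control replicate 1 the count of members called higher was 5 of 10 (Plin1, Plin2, Plin3, G0s2 and Lipe), beside 6.08% of all genes, and 0 were called lower, beside 6.99%. By DESeq2 with all libraries it was 3 higher (Plin3, G0s2 and Mgll; 3.67% of all genes) and 0 lower (3.08%), and by limma-voom 1 higher (0.608%) and 0 lower (0.354%). Without any 1 of the other 5 libraries edgeR called 0.

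**Figure D1:**
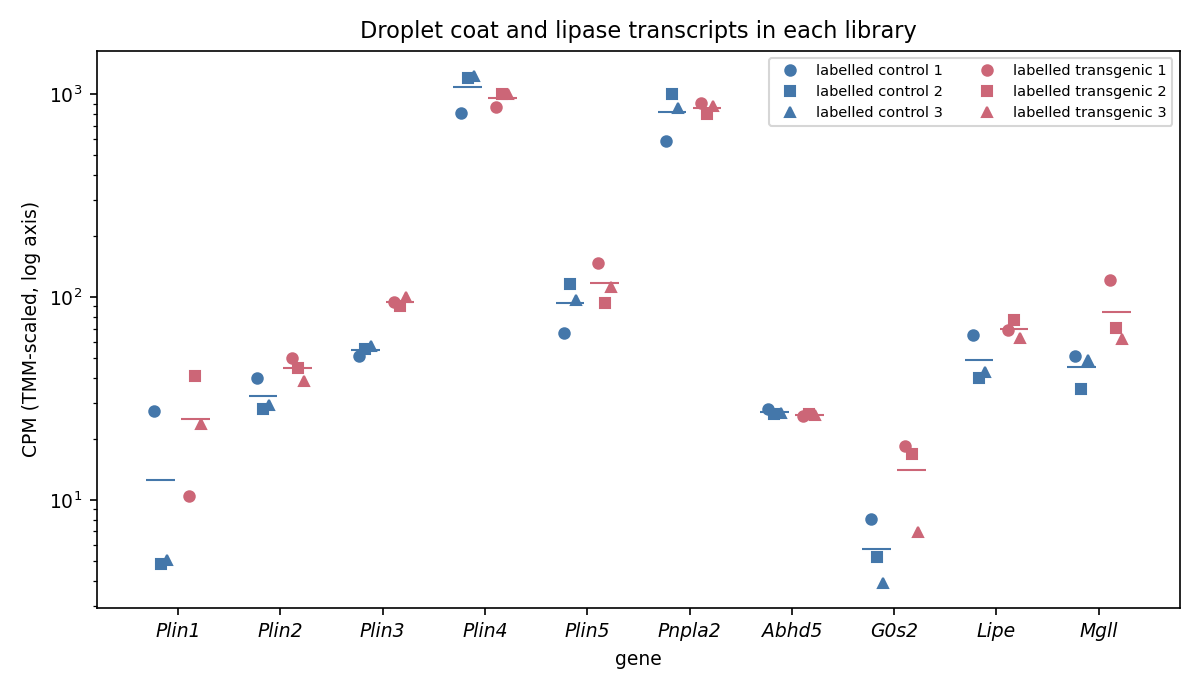
TMM-scaled CPM on a log axis for each of the 10 genes, 1 point per library (blue, labelled control, red, labelled transgenic, with circles, squares and triangles for replicates 1, 2 and 3) and a line at each group mean. The 3 red points of Plin3 and of Mgll lie above all 3 blue ones, while Plin1 spans 4.82 to 40.9 CPM with the groups mixed.

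Perilipin 3 (Plin3, ENSMUSG00000024197, GRCm38 chromosome 17, 56277476 to 56292873, minus strand), a coat protein that moves between the cytosol and new droplets, had 51.2, 55.5 and 57.2 CPM in control replicates 1, 2 and 3 and 94.7, 89.9 and 100.1 CPM in transgenic replicates 1, 2 and 3. Every library labelled transgenic lay well above every control, and each group was narrow, at 54.6 ± 3.06 and 94.9 ± 5.11 CPM (SD, n = 3 each). The rise was 1.74-fold (95% interval 1.46 to 2.06), a log2 fold change of 0.80 ± 0.11 (SE, edgeR adjusted p = 0.0250). Control replicate 1, the library that stood apart, had the lowest Plin3 level of all 6. Without it the log2 fold change was 0.75 (edgeR adjusted p = 0.0118). It stayed between 0.75 and 0.83 when any 1 library was left out. The call was lost without control replicates 2 and 3 (edgeR adjusted p = 0.0890 and 0.138) and without transgenic replicates 1, 2 and 3 (0.0596, 0.113 and 0.149), fits in which at most 46 genes of the whole table were called higher.

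The stretch before the Plin3 start site is shown because Plin3 is the droplet gene that passed the test, beside that of Mgll, whose groups also did not overlap upward, and that of Plin2 as an example with 2 different motifs, as Plin5 also had. Each is the run of 250 bases before a RefSeq start site (table of build GRCm38.p6), 5′ to 3′ on the gene's strand, in lower case with motif matches in capitals. Plin3 and Plin2 are on the minus strand and Mgll on the plus strand. The Plin3 window, chr17:56290512-56290761, lies within the gene span given in the deposited table. The Plin2 window is chr4:86670060-86670309 and that of Mgll chr6:88724162-88724411.
Plin3: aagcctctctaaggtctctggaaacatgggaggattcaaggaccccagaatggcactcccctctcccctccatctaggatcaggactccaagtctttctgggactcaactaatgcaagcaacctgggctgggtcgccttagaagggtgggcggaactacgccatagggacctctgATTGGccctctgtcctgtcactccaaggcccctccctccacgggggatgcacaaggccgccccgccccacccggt
Plin2: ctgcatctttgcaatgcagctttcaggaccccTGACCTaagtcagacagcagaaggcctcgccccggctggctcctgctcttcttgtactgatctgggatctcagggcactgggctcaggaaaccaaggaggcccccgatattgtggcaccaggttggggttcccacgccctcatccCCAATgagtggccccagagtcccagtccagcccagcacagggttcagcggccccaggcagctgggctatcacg
Mgll: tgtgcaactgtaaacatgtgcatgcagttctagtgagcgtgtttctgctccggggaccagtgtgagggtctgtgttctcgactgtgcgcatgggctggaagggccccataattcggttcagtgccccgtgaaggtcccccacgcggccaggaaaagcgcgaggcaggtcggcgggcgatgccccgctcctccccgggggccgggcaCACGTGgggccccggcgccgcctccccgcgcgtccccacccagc
The capitals in Plin3 are a CCAAT box read on the opposite strand, its near end 71 bases before the start. In Plin2 they are a nuclear receptor half-site AGGTCA on the opposite strand and a CCAAT box 69 bases before the start, and in Mgll an E-box CACGTG 39 bases before the start.

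All 10 genes matched the promoter table, with 13 start sites in all. Of these 13 windows 4 held CCAAT (Plin2, Plin3, Plin4 and Plin5), a motif found in 33.8% of all 32851 windows of the same length, counting both strands. The half-site AGGTCA was in 3 (Plin2, Plin5 and Abhd5; 14.0% of all windows) and CACGTG, which reads the same on both strands, in 2 (Mgll and Lipe; 6.02%). A direct repeat of that half-site with any 1 base between the copies, which contains AGGTCA and is the form bound by PPAR factors, was in 0 (0.0335% of all). The cyclic AMP response element TGACGTCA and the TATA box TATAAA were in 0 as well (1.55% and 12.4% of all). No matches overlapped in these windows. A match describes letters, not a bound site, and the absence of one says nothing about the factor.

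Perilipin 2 (Plin2, chromosome 4, 86648386 to 86670060), the coat protein found on droplets of most cells, had 39.8, 28.1 and 29.4 CPM in the control libraries and 50.1, 44.9 and 38.8 CPM in those labelled transgenic. The groups overlapped only through control replicate 1, which lay just above transgenic replicate 3. Between groups the log2 fold change was 0.46 ± 0.17 (SE, edgeR adjusted p = 0.192), and without control replicate 1 it was 0.63 (edgeR adjusted p = 0.0297).

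Perilipin 1 (Plin1, chromosome 7, 79720218 to 79732903), the fat cell coat protein, had 27.6, 4.82 and 5.07 CPM in control replicates 1, 2 and 3 and 10.4, 40.9 and 23.6 CPM in transgenic replicates 1, 2 and 3. Control replicate 1 was higher than 2 of the 3 libraries labelled transgenic, so the groups overlapped. With all libraries the log2 fold change was 0.99 ± 0.74 (SE, 95% interval -0.74 to 2.71, edgeR adjusted p = 0.476). Without control replicate 1 it was 2.33 (edgeR adjusted p = 0.0341), so that library decided whether Plin1 was called. It was 0.61, 0.62 and 0.44 without control replicates 2 and 3 and transgenic replicate 2.

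Fat cell transcripts varied between the same libraries. Adipoq, the fat cell hormone adiponectin, was at 58.1, 8.46 and 16.3 CPM in control replicates 1, 2 and 3 and at 8.72, 38.4 and 25.8 CPM in transgenic replicates 1, 2 and 3. Adipoq was high in control replicate 1 and transgenic replicate 2, as Plin1 was. Among the 11 adipocyte markers Fabp4, Thrsp and Aqp7 were instead highest in transgenic replicate 1, at 1032.5, 25.8 and 55.3 CPM. The 11 adipocyte markers summed to 534 to 1831 CPM in control and 974 to 1603 CPM in the libraries labelled transgenic, none was at 0 in any library, and 0 were called (edgeR, with 2 higher and 0 lower at an unadjusted p under 0.05, and 1 higher by DESeq2). The sum is led by Fabp4 and Scd1, and Fabp4 also occurs in endothelium. Without control replicate 1 the control sums were 534 and 726 CPM, below all 3 others. In transgenic replicate 1 Fabp4 alone had 1032.5 of the 1286 CPM, so the place of that library above control replicate 3 rests on Fabp4. In bulk tissue more cells of a type and more RNA per cell cannot be told apart, and the part of fat cells in the Plin1 difference was not tested. Brown fat was near absent: Ucp1 had 1 count in transgenic replicate 3 and 0 in each of the other 5 libraries, with Zic1 and Cidea the highest markers of that list.

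**Figure D2:**
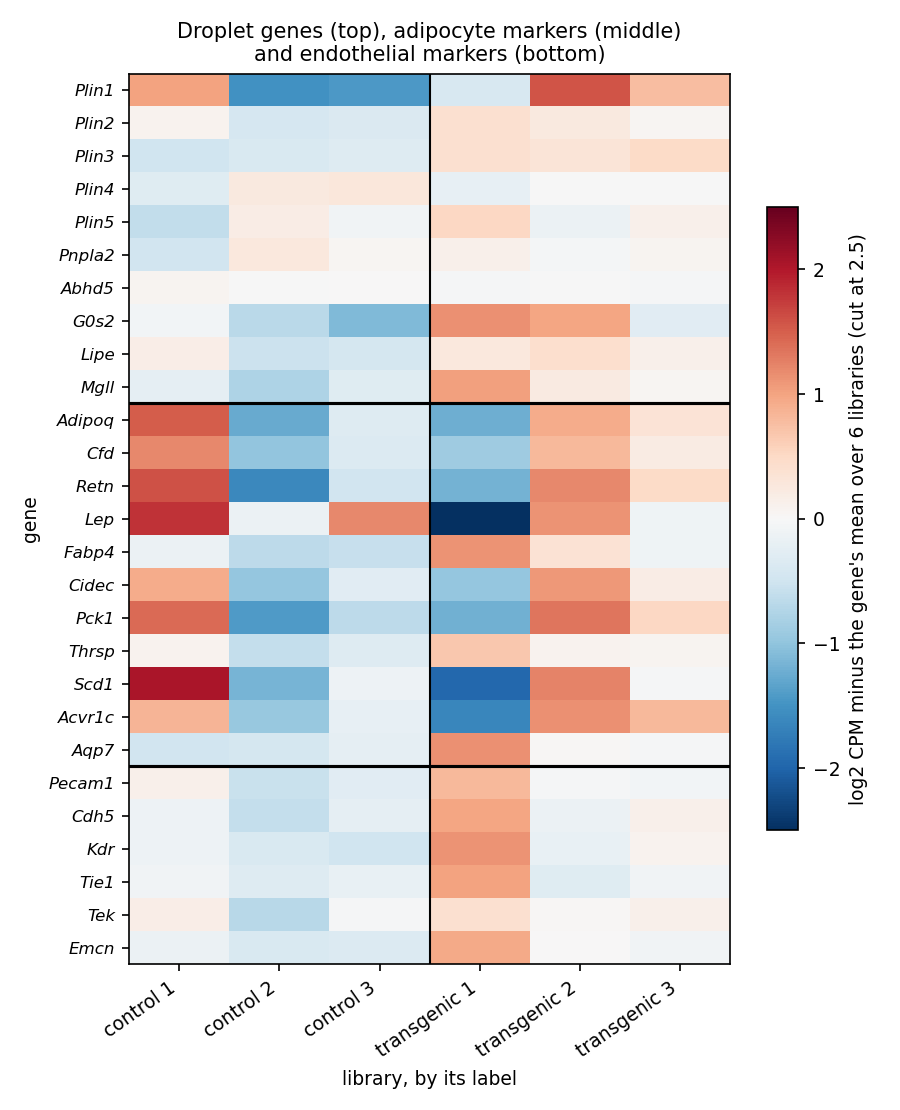
Log2 CPM minus the mean of each gene over 6 libraries, red above and blue below, for the 10 droplet genes (top), 11 adipocyte markers (middle) and 6 endothelial markers (bottom), with libraries in columns by label. Plin1, Adipoq and Cidec are red in control replicate 1 and transgenic replicate 2, and Plin3 is blue in the 3 control columns and red in the other 3. Fabp4, Thrsp and Aqp7 are reddest in transgenic replicate 1, as are Mgll and the endothelial markers.

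Perilipin 4 (Plin4, chromosome 17, 56100591 to 56109803), a coat protein abundant in fat and muscle, was the most abundant perilipin. It had 813, 1200.4 and 1229.8 CPM in control replicates 1, 2 and 3 and 870.3, 1000.8 and 1003.9 CPM in transgenic replicates 1, 2 and 3. Control replicate 1 was the lowest of the 6 and control replicates 2 and 3 the highest, so the groups overlapped through control replicate 1 alone. The log2 fold change was -0.17 ± 0.21 (SE, 95% interval -0.66 to 0.31, edgeR adjusted p = 0.667), and 0.00 when libraries were scaled by their totals alone. Without control replicate 1 it was -0.34 (edgeR adjusted p = 0.14), and without control replicates 2 or 3 or transgenic replicate 1 it was -0.09, -0.07 and -0.09.

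Perilipin 5 (Plin5, chromosome 17, 56111601 to 56117596), which links droplets to mitochondria and binds both Pnpla2 and Abhd5, lies 1797 bases from Plin4 on the same strand. It had 66.9, 116.6 and 96.4 CPM in the control libraries and 146.9, 93.2 and 112.5 CPM in those labelled transgenic. Only transgenic replicate 1 lay above every control. For Plin5 the log2 fold change was 0.33 ± 0.24 (SE, 95% interval -0.22 to 0.89, edgeR adjusted p = 0.454), so this neighbour of Plin4 was not called either. It was 0.14 without control replicate 1, 0.16 without transgenic replicate 1 and 0.53 without control replicate 2 (edgeR adjusted p = 0.631, 0.765 and 0.36).

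On the scale of FPKM (fragments relative to gene length and library size), which allows levels of different genes to be compared, Plin4 made up most of the perilipin signal. In control replicates 1, 2 and 3 its share of the summed FPKM of the 5 perilipins was 69.1%, 72.3% and 75.1%, and in transgenic replicates 1, 2 and 3 it was 57.4%, 65.8% and 64.3%. The share of Plin3 was 6.65%, 5.10% and 5.32% in control and 9.52%, 9.02% and 9.79% in the other libraries. In neither share did the groups overlap. The shares of Plin1, Plin2 and Plin5 overlapped, with Plin5 at 15.7% to 19.4% and 17.0% to 26.8%. The 5 perilipins together summed to 258 ± 48.2 FPKM in control and 265 ± 6.12 FPKM in the other libraries (SD, n = 3 each). Shares of 1 sum depend on each other and were not tested.

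**Figure D3:**
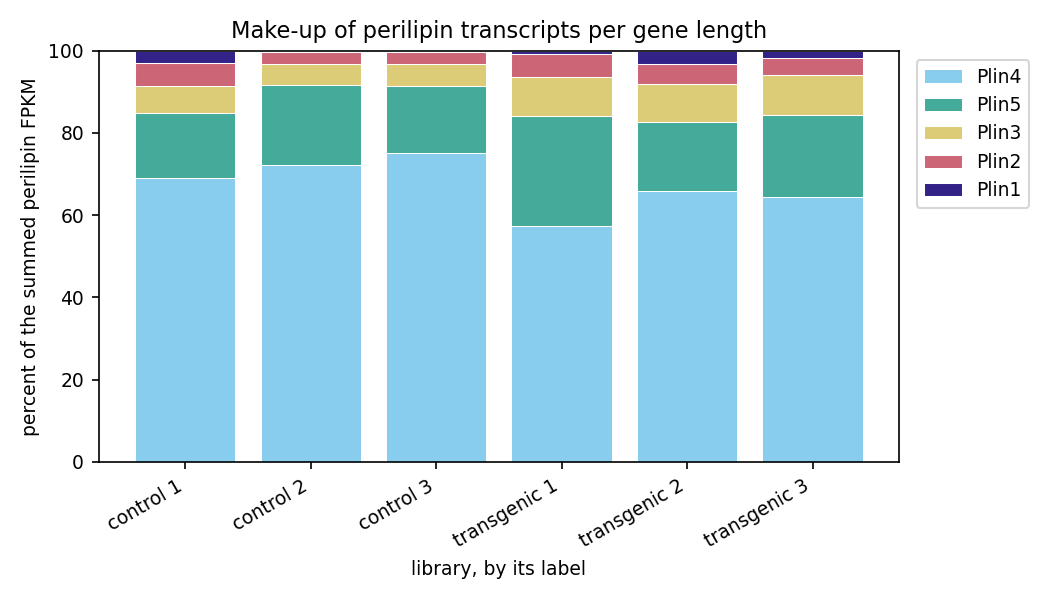
Stacked bars of each perilipin's percent of the summed perilipin FPKM, 1 bar per library by label. Plin4 fills 69.1% to 75.1% of the 3 control bars and 57.4% to 65.8% of the other 3, and Plin3 5.10% to 6.65% and 9.02% to 9.79%.

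Among the lipases, Pnpla2 (ENSMUSG00000025509, chromosome 7, 141455198 to 141460743), the enzyme that opens triglyceride breakdown, had the highest FPKM of the 10 genes in both groups. It had 592, 999.8 and 855 CPM in control replicates 1, 2 and 3 and 909, 799.8 and 873 CPM in transgenic replicates 1, 2 and 3. The libraries labelled transgenic lay within the control range. The log2 fold change was 0.08 ± 0.22 (SE, 95% interval -0.43 to 0.58, edgeR adjusted p = 0.867) and -0.11 without control replicate 1.

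Abhd5 (chromosome 9, 122351608 to 122381524), also known as CGI-58, activates Pnpla2. It was the steadiest of the 10, with 28.1, 26.7 and 26.7 CPM in the control libraries and 26.1, 26.5 and 26.1 CPM in the others. The groups did not overlap, yet they differed by under 1 CPM in their means, 27.2 ± 0.820 against 26.2 ± 0.244 (SD, n = 3 each). The 95% interval of the ratio ran from 0.815 to 1.14 (log2 fold change -0.05 ± 0.11 SE, edgeR adjusted p = 0.817), and the direction turned to 0.09 when libraries were scaled by their totals alone.

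G0s2 (ENSMUSG00000009633, chromosome 1, 193272161 to 193273217), the protein inhibitor of Pnpla2, had 8.05, 5.25 and 3.92 CPM in control replicates 1, 2 and 3 and 18.5, 16.8 and 6.93 CPM in transgenic replicates 1, 2 and 3. Transgenic replicates 1 and 2 lay above all controls, and transgenic replicate 3 lay between control replicates 1 and 2. The log2 fold change was 1.29 ± 0.41 (SE, 95% interval 0.34 to 2.24, edgeR adjusted p = 0.147). It was called by DESeq2 (adjusted p = 0.0259) and without control replicate 1 (1.62, edgeR adjusted p = 0.0463). The G0s2 value is uncertain for another reason: the whole gene lies within Lamb3 on the opposite strand, whose counts were 51 to 96 per library against 85 to 448 for G0s2, and the strand setting of the counting is not given in the sources used here.

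Lipe (ENSMUSG00000003123, chromosome 7, 25379527 to 25398710), hormone-sensitive lipase, had 64.8, 39.7 and 42.5 CPM in control replicates 1, 2 and 3 and 68.8, 76.9 and 62.6 CPM in transgenic replicates 1, 2 and 3. Again only control replicate 1 reached the range of the libraries labelled transgenic. With all libraries the log2 fold change was 0.50 ± 0.20 (SE, 95% interval 0.04 to 0.96, edgeR adjusted p = 0.214), and 0.75 without that control (edgeR adjusted p = 0.0175). Fat cells express Lipe strongly, and the sum of the adipocyte markers was highest in control replicate 1. In transgenic replicate 1 Lipe was at 68.8 CPM and Adipoq at 8.72 CPM, against 8.46 to 58.1 CPM for Adipoq elsewhere. The adipocyte sum in that library was 1286 CPM, of which Fabp4 had 1032.5 CPM. The part of fat cells in the Lipe difference was not tested. An antisense gene, 4732471J01Rik, spans Lipe with 15 to 38 counts per library, at most 2.38% of the Lipe counts.

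Mgll (ENSMUSG00000033174, chromosome 6, 88724412 to 88828360), which clears monoglycerides and the endocannabinoid 2-arachidonoylglycerol, had 51.4, 35.2 and 49.0 CPM in control replicates 1, 2 and 3 and 121.9, 70.3 and 62.2 CPM in transgenic replicates 1, 2 and 3. The groups did not overlap, but transgenic replicate 1 was far above the other two. The log2 fold change was 0.91 ± 0.27 (SE, 95% interval 0.27 to 1.54, edgeR adjusted p = 0.134), and 0.57 without transgenic replicate 1 (edgeR adjusted p = 0.234). DESeq2 called it with all libraries (adjusted p = 0.0229). Transgenic replicate 1 also had the highest sum of the 6 endothelial markers (Pecam1 and Cdh5 highest), at 606 CPM against 226 to 328 CPM in the other 5 libraries, and the part of endothelium in the Mgll difference was not tested.

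**Figure D4:**
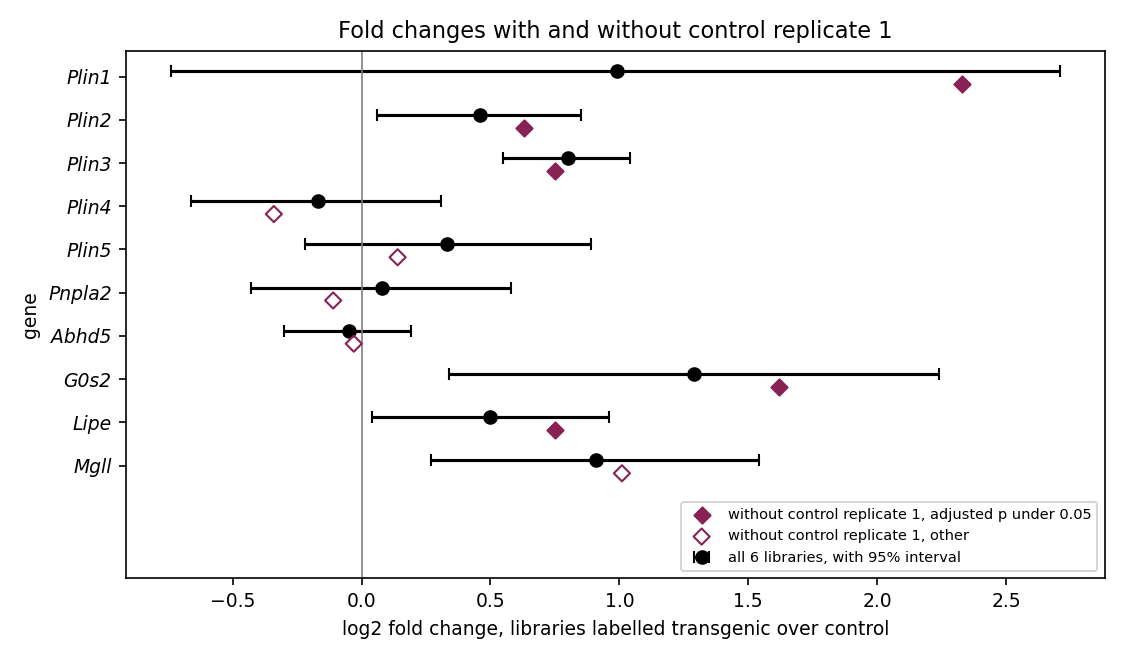
Log2 fold change of each gene, libraries labelled transgenic over control, from edgeR: black points with 95% intervals use all 6 libraries, diamonds leave out control replicate 1 and are filled where the adjusted p was under 0.05. The 5 filled diamonds are Plin1, Plin2, Plin3, G0s2 and Lipe, and the interval of Plin3, 0.55 to 1.04, is one of the narrowest.

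Order of levels was read per gene length. In control libraries mean FPKM fell in the order Pnpla2 (269 ± 69.1), Plin4 (187 ± 40.9), Plin5 (44.6 ± 12.1), Plin3 (14.4 ± 0.866), Plin2 (9.21 ± 1.78), Mgll (8.88 ± 1.71), Lipe (8.30 ± 2.29), G0s2 (6.56 ± 2.38), Abhd5 (4.55 ± 0.119) and Plin1 (2.67 ± 2.79; SD, n = 3 each). The ranges of neighbours in this order overlapped for Pnpla2 and Plin4 and for every pair from Plin2 down, so only the steps around Plin5 and Plin3 were clear of the spread. In the libraries labelled transgenic the 4 leading genes kept their order, at 285 ± 17.5, 166 ± 14.4, 56.2 ± 12.7 and 25 ± 1.44 FPKM. Mgll (16.6 ± 6.21) and G0s2 (16.1 ± 7.07) came next there, above Plin2 (12.7 ± 1.51), with overlapping ranges.

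The balance of Pnpla2 with other members, and of Plin5 with Plin2, Plin3 and Plin4, was measured as 8 ratios of FPKM within each library. Library scaling cannot change these ratios. The inhibitor ratio G0s2 to Pnpla2 was 0.0472, 0.0182 and 0.0159 in control replicates 1, 2 and 3 and 0.0706, 0.0727 and 0.0275 in transgenic replicates 1, 2 and 3. Transgenic replicate 3 lay below control replicate 1, so the groups overlapped (log2 difference 1.12, two-sided exact permutation p = 0.2, adjusted over the 8 ratios p = 0.32, where the smallest p that 3 against 3 allows is 0.1). The activator ratio Abhd5 to Pnpla2 differed by -0.16 on the log2 scale (exact permutation p = 0.8). The ratios of Lipe, Mgll and Plin5 to Pnpla2 differed by 0.42, 0.75 and 0.24, and those of Plin2, Plin3 and Plin4 to Plin5 by 0.12, 0.45 and -0.50. The groups overlapped in all 8 ratios, and with 3 libraries a group none could reach 0.05. Without control replicate 1 the differences of G0s2, Abhd5, Lipe and Mgll to Pnpla2 were 1.61, 0.08, 0.86 and 1.07. Those of Plin2 and Plin3 to Plin5 were then 0.50 and 0.63.

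The surrounding pathway was read from 5 lists with 86 genes, 77 of them tested. None was called (edgeR adjusted p, or limma-voom). At an unadjusted p under 0.05 edgeR gave 14 higher and 5 lower of 77, beside 10.5% and 10.3% of all genes. DESeq2 called 6 higher and 2 lower, beside 3.67% and 3.08%, and edgeR without control replicate 1 called 11 higher and 6 lower, beside 6.08% and 6.99%. The genes named from these lists are those of smallest p, and several passed in other fits. Median log2 fold changes were 0.01 for 13 tested genes of triglyceride synthesis, -0.08 for 18 other droplet proteins, -0.07 for 13 other acylglycerol lipases, 0.06 for 13 genes of adrenergic and protein kinase A control, and 0.26 for 20 PPAR factors and target genes, against -0.03 over all genes.

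In triglyceride synthesis Dgat2, which attaches the last fatty acid, had 82.3, 105.7 and 92.4 CPM in control replicates 1, 2 and 3 and 63.6, 45.6 and 52.7 CPM in transgenic replicates 1, 2 and 3. The groups did not overlap, with the libraries labelled transgenic lower (log2 fold change -0.79 ± 0.16 SE, edgeR adjusted p = 0.0632). Dgat2 was called by DESeq2 (adjusted p = 0.00128) and without control replicate 1 (-0.88, edgeR adjusted p = 0.0195). Lpin3, a phosphatidate phosphatase, was at 0.71 ± 0.27 (edgeR adjusted p = 0.204) and at 0.37 without transgenic replicate 1. Among droplet proteins Cidea, which promotes droplet fusion, had 2.0 to 3.12 CPM in control and 4.81 to 6.20 CPM in the other libraries (log2 fold change 1.14 ± 0.24, edgeR adjusted p = 0.0685). Cidea was called in 5 of the 15 alternative fits: by DESeq2 (adjusted p = 0.00754), with library totals (edgeR, 0.0470), on both FPKM scales (limma, 0.0382 and 0.0407) and without control replicate 1 (0.99, edgeR, 0.0318). Vps13c, a lipid transfer protein, was at 0.49 ± 0.14 (edgeR adjusted p = 0.119).

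The lipases next to the threshold lay on either side of 0. Abhd6, another monoglyceride lipase, had 4.80, 6.10 and 5.30 CPM in control replicates 1, 2 and 3 and 9.30, 12.3 and 10.8 CPM in transgenic replicates 1, 2 and 3 (log2 fold change 1.0 ± 0.18 SE, edgeR adjusted p = 0.0518). Ces1d, a carboxylesterase that hydrolyses triglyceride, had 88.2, 57.1 and 73.8 CPM in control and 14.0, 32.2 and 24.6 CPM in the other libraries (-1.63 ± 0.30, edgeR adjusted p = 0.0518). Neither pair of groups overlapped, and both genes were called without control replicate 1 (edgeR adjusted p = 0.0258 and 0.0272) and by DESeq2 (adjusted p = 0.00147 and 1.24e-05). Of the adrenergic list Akap1, which anchors protein kinase A at mitochondria, was at 0.88 ± 0.18 (edgeR adjusted p = 0.0685) and Pde3a, a cyclic AMP phosphodiesterase, at 0.82 ± 0.21 (0.0964). Both were called without control replicate 1 (edgeR adjusted p = 0.0385 and 0.0430) and by DESeq2 (0.00121 and 0.0216), and Akap1 with library totals (edgeR, 0.0364).

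Of the PPAR list Angptl4, a secreted inhibitor of lipoprotein lipase and a fatty acid-responsive gene, had 56.9, 58.4 and 62.9 CPM in control replicates 1, 2 and 3 and 196, 100.5 and 106.7 CPM in transgenic replicates 1, 2 and 3. All libraries labelled transgenic lay above all controls, with transgenic replicate 1 the highest (log2 fold change 1.18 ± 0.25 SE, edgeR adjusted p = 0.0755). Angptl4 was called without control replicate 1 (1.15, edgeR adjusted p = 0.0433) and by DESeq2 (adjusted p = 0.000493). Ppargc1a, a coactivator of oxidative metabolism, was at 86.5 CPM in that library and 34.7 and 35.2 CPM in transgenic replicates 2 and 3, against 15.5 to 25.4 CPM in control (1.46 ± 0.39, edgeR adjusted p = 0.109, and 0.00321 by DESeq2), and at 0.89 without transgenic replicate 1 on the log2 scale. Transgenic replicate 1 was thus the highest library for Plin2, Plin5, G0s2, Mgll, Angptl4 and Ppargc1a, and not for Plin1, Plin3 or Lipe. Some muscle fibre markers also set this library apart. Myh1 was at 9413 CPM there, against 2811 to 4090 CPM elsewhere. Pvalb was at 3036 CPM, against 6690 to 9611 CPM, while Myh7, at 181 CPM, lay within the range of the others. Myh4, the most abundant of these markers, was lowest there, at 29055 CPM against 32689 to 60249 CPM. Of the rest of the list Acta1, Myh2 and Mb were highest in this library, Ckm and Tnnt3 lowest, and Mylpf in between. The part of fibre make-up in these levels was not tested.

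**Figure D5:**
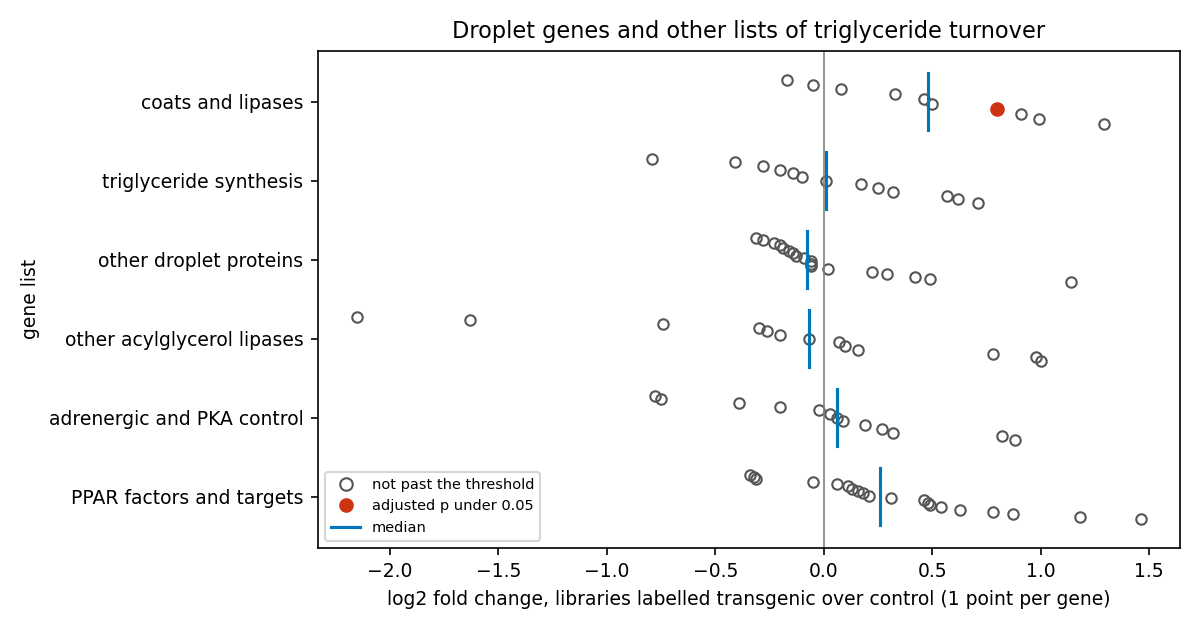
Log2 fold change, libraries labelled transgenic over control, with 1 circle per tested gene in each of 6 lists and a blue bar at the list's median. The filled circle is Plin3, the 1 gene past an adjusted p of 0.05, and the medians run from -0.08 for other droplet proteins to 0.48 for the 10 coats and lipases.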

How the data were processed

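The authors deposited raw counts, whole numbers for each Ensembl gene, for the 6 libraries. The submitters' processing notes name HISAT2 2.0.5, featureCounts 1.5.0-p3 and GRCm38, without role or order. The authors' deposited FPKM values were found to be counts over gene length and a library size (DESeq2 size factor, rescaled to the geometric mean total). Groups and replicate numbers come from the sample titles.

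The test was edgeR 4.0.16 under R 4.3.3 (TMM scaling, filterByExpr, quasi-likelihood test, legacy = FALSE) over 14973 genes, with two-sided p-values adjusted by Benjamini-Hochberg at 0.05. The SE is the log2 fold change over the square root of F. CPM use TMM library sizes, and 3 counts equal 0.120 to 0.145 CPM. The steps were tested on simulated counts.

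The members and lists were chosen with earlier results of these data known. Named genes are the 10 members, the 2 genes of smallest p in each pathway list with no call, and the 2 most abundant of each marker list. Adipoq, Cidec, Ucp1 and the genes of the closing section outside the rule were named after their values were seen. So were Thrsp, Aqp7, Cd8a, Ms4a1 and the muscle fibre markers other than Myh4 and Acta1, and the motifs were chosen then too. DESeq2 1.42.0, limma 3.58.1 (voom, or log2(FPKM + 1) and log2(FPKM + 0.1) with at least 1 FPKM in 3 libraries), other scalings and filters, a replicate block and fits without each library were alternatives.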

Additional observations from a re-analysis of the deposited data

How the results depend on the processing

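The direction of 7 of the 10 droplet genes held under all 15 alternatives (other scalings, filters, tools, units, a replicate block and each library left out). The exceptions were Plin4, at 0.00, and Abhd5, at 0.09, with scaling by library totals, and Pnpla2, which ran from -0.11 to 0.25 over the fits without 1 library. Plin3 passed in 9 of the 15. The number of members called higher was 3 by DESeq2, 0 with the replicate block and 0 to 5 without 1 library; none was called lower in any (0 at an unadjusted p under 0.05 in edgeR with all libraries). Over all genes, DESeq2 called 529 higher and 444 lower, scaling by totals 205 higher, no low-count filter 40 lower, the replicate block 2 higher and 3 lower, and fits without 1 library 0 to 910 higher and 0 to 1046 lower. Pathway genes called higher were 3 with scaling by totals, 1 with a filter of 1 CPM, 6 by DESeq2, 2 with either FPKM offset and 0 to 11 without 1 library. Those called lower were 1 with the filter of 1 CPM, 2 by DESeq2, 1 on log2(FPKM + 1) and 0 to 6 without 1 library. Without 1 library the log2 difference of Abhd5/Pnpla2 ran from -0.34 to 0.08 and that of Plin2/Plin5 from -0.15 to 0.50. The causes were not tested.

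The replicate numbers did not pair the libraries: deviations from the group mean correlated at -0.02, -0.17 and 0.16 for numbers 1, 2 and 3. With the replicate block Plin3 had a log2 fold change of 0.80 (edgeR adjusted p = 0.0860), and the ratio G0s2/Pnpla2 differed by 1.12 (exact permutation over pairs p = 0.25, the smallest that 3 pairs allow).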

Other observations

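Some transcripts that act upstream of lipolysis were high in control replicate 1 and transgenic replicate 2, as Plin1 was. Prkar2b, a regulatory subunit of protein kinase A, was at 13.6, 3.69 and 4.56 CPM in control replicates 1, 2 and 3 and at 3.26, 12.7 and 10.7 CPM in transgenic replicates 1, 2 and 3. Pde3b, the insulin-responsive phosphodiesterase of fat cells, was at 25.8, 6.00 and 7.38 CPM and at 8.47, 23.3 and 13.1 CPM. Both were highest in control replicate 1 and next highest in transgenic replicate 2, the libraries where Adipoq was highest. The part of fat cells in these levels was not tested. The adenosine receptor Adora1 and the beta-3 adrenergic receptor Adrb3 were also highest in control replicate 1, at 3.96 and 5.21 CPM, against at most 3.15 and 3.05 CPM elsewhere. None of the 4 was called (edgeR adjusted p from 0.644 to 0.960). Their values rested on control replicate 1. Without it the log2 fold change went from 0.27 to 1.10 for Prkar2b and from 0.19 to 1.16 for Pde3b. For Adora1 it went from 0.09 to 1.67 and for Adrb3 from -0.75 to 0.44, still without a call (edgeR adjusted p from 0.0884 to 0.720 for the 4).

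Faah, an amidase that degrades fatty acid amides, was at 9.09 CPM in control replicate 1 and at 0.461 to 0.909 CPM in the other 5 libraries. Its log2 fold change was -2.15 with all libraries (edgeR adjusted p = 0.308) and 0.47 without that one (0.449).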
